A study of Rattus norvegicus with 18 samples.

Results

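Gene expression in whole brain was compared between rats labelled SHRSP and rats labelled WKY at 6 weeks of age. SHRSP is the stroke-prone spontaneously hypertensive rat, an inbred strain that develops severe hypertension and strokes, and WKY is the related normotensive Wistar Kyoto strain. The comparison used the 3 arrays titled for SHRSP at 6 weeks and the 3 titled for WKY at 6 weeks, 6 of the 18 arrays of the series. The other arrays, 3 per group, covered SHR (the spontaneously hypertensive rat) at 6 weeks and all 3 strains at 3 weeks. No animal was treated and no strain carried a transgene. Each array is described as a biological replicate, and the labels do not say how many brains or litters stood behind it, so p-values measure the spread between these arrays. The animals' sex is not given in the sources used here.

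Total RNA was labelled from its poly(A) end with Cy3 and hybridised to 60-base Agilent probes. A level below is the log2 intensity of a gene's probe minus the 75th percentile of its array, so 0 is the 75th percentile and 1 unit is 2-fold. A difference is SHRSP minus WKY on this scale, with its standard error from a limma model over all 18 arrays (n = 3 per group). A gene was called where its limma adjusted p was under 0.05, and "raised" or "lowered" is used of called genes. Median intensity was 358 to 405 on the WKY arrays and 354 to 425 on the SHRSP arrays, no probe was saturated, and replicate arrays of both groups correlated at 0.996 to 0.997 over genes. The number of arrays limits the precision. The brain label was borne out: the 15 neuron markers were all measured, with summed levels of 94.5 to 102 times the 75th percentile on the WKY arrays and 97.9 to 101 times on the SHRSP arrays.

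The labels SHRSP and SHR did not go with the same expression pattern at both ages. Between these labels 898 genes (4.24%) were called at 3 weeks, 2.24% of all genes higher and 2% lower in SHRSP. Of the 75 that were at least 2-fold apart, 67 had the opposite sign at 6 weeks, 61 of them called, and 5 were called with the same sign. Agtrap, which encodes a protein that binds and internalises the angiotensin type 1 receptor, was at -4.32, -4.46 and -4.41 on the 3-week arrays labelled SHRSP and at -0.24, -0.30 and -0.14 on the 6-week arrays labelled SHRSP. On the arrays labelled SHR it was at -0.36, -0.34 and -0.31 at 3 weeks and at -4.84, -4.79 and -4.72 at 6 weeks. The labels therefore go against each other between the ages, and the files do not show which age is right. Every direction below is that of the arrays labelled SHRSP at 6 weeks. No value of the comparison can be given without them, since they are the whole of that group.

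The slides also follow the groups. The 3 arrays labelled SHRSP at 6 weeks lay on a slide with no other array of the series, scanned on a day of its own. The 3 WKY arrays lay together on another slide with 1 of the 3-week SHRSP arrays. Slide, scan day and strain label therefore cannot be told apart. With the slide as a random block (correlation 0.2721), fewer genes were called. That fit is cited for part of the genes and lists below, so a call or count given without it need not have held.

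Blood pressure in these strains is set by many loci, and the strains also differ at many sites that have nothing to do with blood pressure. The brain takes part in pressure control through sympathetic neurons, vasopressin cells of the hypothalamus and a local renin-angiotensin system, in which angiotensinogen is cut in steps to a peptide that acts on type 1 receptors. Arachidonic acid products (prostaglandins, leukotrienes, epoxides) act on brain vessels, and neuronal activity is read out by immediate early genes, transcription factors and synaptic proteins that are induced within minutes and decay fast.

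The probes behind 5 of the genes described first are shown by their middle 30 bases of 60, because each value rests on hybridisation to this stretch and for Acsm5 and Ptprj a second probe was also kept. Coordinates are those of the whole probe in rn4, as the array files give them. Whether the bases lie in an exon, a UTR or at a strain difference was not analysed here. The Vegfb probe lies at chr1:209657830-209657889 (minus strand), the Ptgr1 probe at chr5:77010948-77011007 (minus) and the Alb probe at chr14:19126980-19127039 (minus). The Acsm5 probe used lies at chr1:177808482-177808541 (plus) and the other between 177802518 and 177804621, which spans more than its own length. The Ptprj probe used lies at chr3:74793997-74794056 and the other at chr3:74798386-74798445 (both minus).
Vegfb: tcttcaccaaatggaacaaggcatgacagc
Ptgr1: gagaagatgcccgcagcgttcatgggaatg
Alb: tggtgtaaaaccaacaccttaaggaacaca
Acsm5, used: tttagaaatcacacttttgggactcactat
Acsm5, other: tggacaatcctgagaagacagcagcatcag
Ptprj, used: cctgtctggtctgctcactaggatgtgctg
Ptprj, other: gtttgggagaaaaacgtatatgccattgtt

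Of 21183 genes tested, 6690 (31.6%) were called, 4292 raised (20.3%) and 2398 lowered (11.3%). Every count of raised or lowered members of a list below is to be read against these shares. The lists and their members were chosen with earlier results of these data known. Most calls were small: the median absolute difference of called genes was 0.288. At least 2-fold were 261 genes (1.23%), 134 raised and 127 lowered. The split of directions depends on the scaling. Raised genes were 64.2% of the calls with percentile scaling and 48.5% with quantile normalization (2954 raised, 3141 lowered), and the median difference of all genes was 0.06 and 0.01. With the random slide block 3211 genes (15.2%) were called, each of them among the 6690, and 202 of the 261 remained called.

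Vegfb, which encodes a member of the vascular endothelial growth factor family, differed most. Its probe read 0.46, 0.37 and 0.29 on the WKY arrays and -8.98, -8.81 and -9.23 on the SHRSP arrays, all 3 of which were not well above background. It was at least 216-fold lower in SHRSP, computed against the lowest signal counted as well above background (limma adjusted p = 4.51e-15, with measured means differing by -9.38 ± 0.14). On the 6-week arrays labelled SHR it read 0.31, 0.29 and 0.22, beside WKY. At 3 weeks the low arrays were those labelled SHR (-9.48, -8.78, -9.17), and those labelled SHRSP read 0.46, 0.37 and 0.48. The Vegfb value thus rests on the label conflict above and on 1 kept probe.

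The largest differences were ranked among called genes with an established symbol, above background on all 6 arrays and without overlap between the groups. The first was that of Ptgr1, prostaglandin reductase, which inactivates leukotriene B4 and 15-keto prostaglandins. It was at 1.37, 1.42 and 1.48 in WKY and at -2.51, -2.35 and -2.47 in SHRSP, a difference of -3.87 ± 0.06 (adjusted p = 4.51e-15). The groups lay far apart, and at 3 weeks the difference was again -3.87. Alb, serum albumin, was at -1.48, -1.54 and -1.48 in WKY against -4.97, -5.45 and -5.00 in SHRSP, a difference of -3.64 ± 0.13 (adjusted p = 1.09e-10). Within 1 Mb each side of its probe on chromosome 14 (rn4) 18 genes were tested, Alb included, of which 8 were called (31.6% of all genes) and 3 were called and at least 2-fold (1.23%). Those 3 are neighbours among the genes tested: Alb, Afp at -1.38 ± 0.17 and Albfm1 at -2.23 ± 0.32, whose probes lie at -34.4 kb and -134.2 kb from that of Alb. Afp, alpha-fetoprotein, was chosen after its values were seen.

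Ptprj, a receptor tyrosine phosphatase, was at 1.55, 1.56 and 1.48 in WKY and at -0.29, -0.35 and -0.31 in SHRSP by the probe used (-1.85 ± 0.05). Its other probe, shown above, differed by -0.22 (adjusted p = 0.10 among probes), so the size of the Ptprj difference depends on the probe. Serhl2, a serine hydrolase-like gene, fell by 1.87 ± 0.07. Ncaph, a condensin subunit, fell by 1.80 ± 0.07, and Clca1, a regulator of chloride channels, by 1.74 ± 0.12. Nudt17, of the Nudix hydrolase family, fell by 1.72 ± 0.11. That the SHRSP and WKY arrays of these genes did not overlap was part of the rule that chose them (48.4% of all genes did not).

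Acsm5, an enzyme that activates medium-chain fatty acids, had the largest raised difference in the same ranking. It was at -5.78, -5.87 and -5.72 in WKY and at -1.97, -1.97 and -2.0 in SHRSP, a difference of 3.81 ± 0.06 (adjusted p = 2.33e-14), and its other probe gave 3.15 ± 0.23. Both probes were called in the same direction, though the other probe was well above background on only 1 of the 3 WKY arrays. Adtrp, which encodes a hydrolase that regulates tissue factor pathway inhibitor, rose by 3.56 ± 0.06. Ltbp2, a protein of elastic fibres, rose by 2.25 ± 0.11. Its other probe, well above background on 1 of the 3 WKY arrays, gave 1.51. Mcm7, a subunit of the replicative helicase, was at -2.04, -2.0 and -2.10 in WKY and at 0.02, 0.04 and 0.10 in SHRSP (2.10 ± 0.06). Rpl10l1 rose by 2.20 ± 0.25, and its other probe gave 1.43, though signal from close copies of the ribosomal protein gene Rpl10 cannot be separated here. Ctse, the aspartic protease cathepsin E, rose by 2.06 ± 0.14 and C16h10orf53 by 1.97 ± 0.12. Absence of overlap between the groups was again part of the rule that chose these 7 genes. All 7 had the same sign at 3 weeks.

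**Figure D1:**
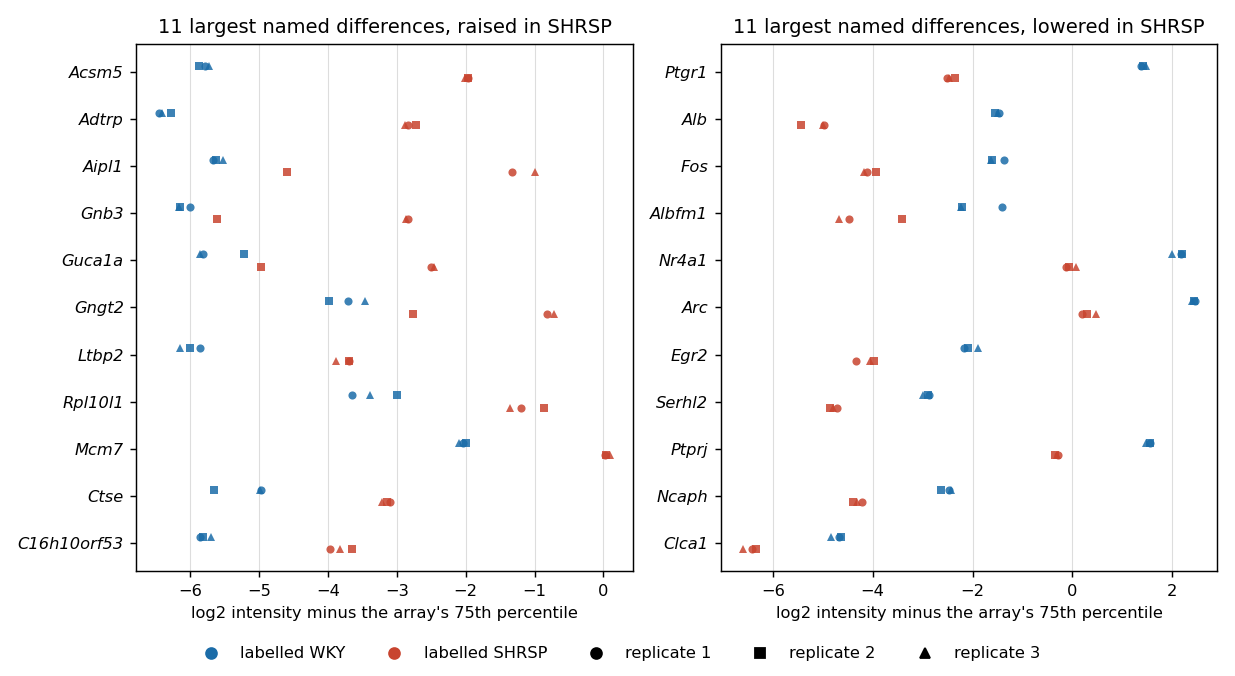
Levels (log2 intensity minus the array's 75th percentile) of 11 raised and 11 lowered genes, with 1 point per array. They have the largest differences among called genes with an established symbol, above background on all 6 arrays and without overlap between the groups. That rule sets the groups apart for each of the 22 genes. For Aipl1, Gnb3, Guca1a and Gngt2 SHRSP replicate 2 lies nearer to WKY than replicates 1 and 3.

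The plot of the 22 largest differences shows that 4 of the raised genes owe their size to part of the group. Aipl1, which encodes a photoreceptor chaperone, was at -5.67, -5.62 and -5.52 in WKY and at -1.33, -4.59 and -0.99 in SHRSP. Its difference of 3.3 ± 1.12 passed the test (adjusted p = 0.038), but only 1 of the 6 fits that left out an array kept the call, and the random slide block ended it (adjusted p = 0.23). Gnb3, Guca1a and Gngt2, all of the photoreceptor cascade, had the same pattern and are described with the pineal markers below.

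Some genes were not well above background in a whole group and have only a bound. Oxnad1 was at least 4.26-fold higher in SHRSP (limma adjusted p = 2.02e-06), Pira2 at least 3.07-fold (0.000542), Gnat2 at least 1.91-fold (0.0249) and Ces2c at least 1.44-fold (0.00942). Klrb1c, a natural killer cell receptor gene, was at least 5.15-fold lower (adjusted p = 0.00764), with WKY at -5.50, -2.95 and -6.62. Dtl, an adaptor of a ubiquitin ligase active in replication, was at least 3.10-fold lower (5.35e-05), and Or5aq6, an olfactory receptor gene, at least 3.04-fold lower (2.35e-07). The call was lost with the random slide block for Gnat2 (adjusted p = 0.15), Ces2c (0.11) and Klrb1c (0.074).

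Immediate early genes were lower together in SHRSP. Of 23 measured, 19 were lowered (against 11.3% of all genes) and 1 was raised, with a median difference of -0.733 against 0.059 over all genes. The groups did not overlap in 20 of the 23 (48.4% of all genes). Fos, a subunit of the AP-1 transcription factor, was at -1.37, -1.61 and -1.63 in WKY and at -4.11, -3.94 and -4.18 in SHRSP (-2.54 ± 0.10, adjusted p = 2.49e-10). Nr4a1, an orphan nuclear receptor, was at 2.19, 2.21 and 2.0 against -0.13, -0.07 and 0.08 (-2.17 ± 0.09). Arc, a synaptic protein that drives removal of AMPA receptors, was at 2.46, 2.44 and 2.41 against 0.19, 0.29 and 0.48 (-2.11 ± 0.13). For all 3 the lowest WKY array was over 3-fold brighter than the highest SHRSP array. Egr2, a zinc finger factor, was at -2.17, -2.10 and -1.88 against -4.34, -3.97 and -4.05 (-2.07 ± 0.16).

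The remaining members were lowered by less. Npas4, a factor specific to neuronal activity, fell by 1.67 ± 0.42 (well above background on 2 of the 3 SHRSP arrays), and the random slide block ended its call (adjusted p = 0.095). Btg2, an antiproliferative gene, fell by 1.35 ± 0.19, and Dusp1, a phosphatase of MAP kinases, by 1.15 ± 0.15. Atf3, a stress-induced factor, fell by 1.13 ± 0.14, and Nr4a3, a relative of Nr4a1, by 1.08 ± 0.10. Klf4 fell by 0.84, Ier2 by 0.78, Egr1 by 0.73, Nr4a2 by 0.67, Egr4 by 0.66, Fosl2 by 0.51, Dusp6 by 0.41, Jund by 0.36, Jun by 0.26 and Ier5 by 0.22. Ier3 was raised, by 0.38 ± 0.06. Fosb, Egr3 and Homer1 did not pass the test. The fits with 1 of the 6 arrays left out called 17 or 18 lowered, and 2 raised without SHRSP replicate 1 or 2. The random slide block kept 16 (against 5.45% of all genes), and quantile normalization gave 19.

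**Figure D2:**
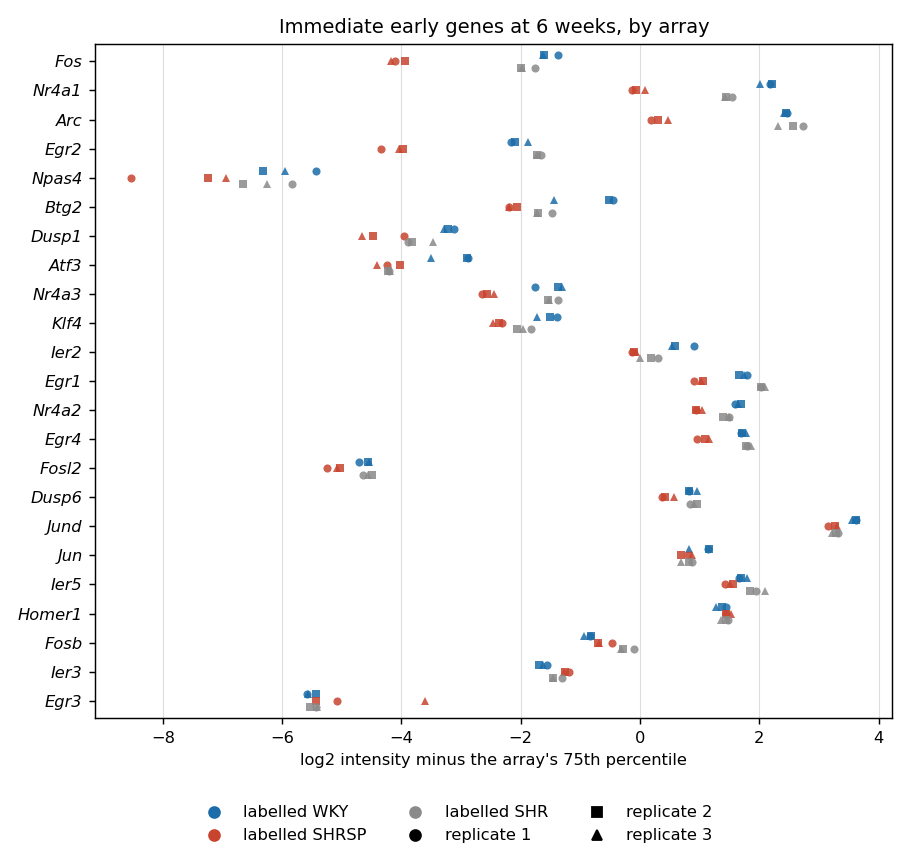
Levels (log2 intensity minus the array's 75th percentile) of the 23 measured immediate early genes on the 9 arrays of 6-week brains, coloured by label, 1 point per array. For Fos, Nr4a1, Arc and Egr2 the 3 SHRSP arrays lie below both other groups, and for Atf3 and Jund the SHR arrays lie beside the SHRSP arrays.

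The same genes were also set against the other groups, as the plot of immediate early genes by array shows. Against the arrays labelled SHR at 6 weeks, 17 of 23 were lower in SHRSP (21.1% of all genes were) and 1 was higher (21.8%). Fos was lower than in SHR by 2.17, Arc by 2.22, Egr2 by 2.42 and Nr4a1 by 1.51. SHR against WKY at 6 weeks, which shares the WKY arrays, lowered 10 of 23 (15.4% of all genes) and raised 4 (25.5%), with Fos at -0.37 and Arc at 0.10. At 3 weeks, on other arrays, 11 of 23 were lowered in SHRSP (23.3% of all genes) and none was raised by limma (17.2% of all genes were; 0 members at an unadjusted p under 0.05), with Fos at -0.81 and Arc at -0.63. The difference between the ages was tested directly: 12 members were called with a more negative value at 6 weeks (9.17% of all genes) and 2 with a more positive one (21.6%). Taking the 3-week arrays labelled SHR in place of those labelled SHRSP gave 14 (4.73% of all genes) and 2 (14.6%), and Fos had an age difference of -1.73 against the 3-week SHRSP arrays and of -2.07 against the 3-week SHR arrays. The age difference of Fos was called with either label at 3 weeks (adjusted p = 2.1e-06 and 7.76e-06).

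Because these genes moved together, their promoters were searched for the cyclic AMP response element TGACGTCA, its short form TGACG and the serum response CArG box, all known sites of activity-dependent factors. The search covered both strands of 250 bases before the start in RefSeq's rat assembly GRCr8, and 16 of the 23 genes had an entry. Arc, Atf3, Egr3, Fos, Ier3, Jun and Nr4a3 had none and were not searched. TGACGTCA contains TGACG, so the counts overlap. TGACGTCA was in 4 of the 16 (Btg2, Dusp1, Ier2 and Jund) and in 1.59% of 33465 promoters. TGACG was in 9 of the 16 and in 18.2% of all promoters, and the CArG box in 2 (Egr1 and Egr2) and in 1.5%. A match is only a match of letters. The list holds genes known for their rapid induction, so its motif shares say nothing about the lowering seen here. The promoters of 3 lowered genes are shown because they differ in which motif they hold, with the matched letters in capitals (CGTCA is TGACG on the other strand). In Egr2 (chr20:21054442-21054691, minus) the CArG box begins 83 bases before the start and a TGACG 66 bases before it. Nr4a1 (chr7:134259888-134260137, plus) holds 4 copies of TGACG, and Ier2 (chr19:40399123-40399372, plus) holds TGACGTCA at 66 bases before the start.
Egr2: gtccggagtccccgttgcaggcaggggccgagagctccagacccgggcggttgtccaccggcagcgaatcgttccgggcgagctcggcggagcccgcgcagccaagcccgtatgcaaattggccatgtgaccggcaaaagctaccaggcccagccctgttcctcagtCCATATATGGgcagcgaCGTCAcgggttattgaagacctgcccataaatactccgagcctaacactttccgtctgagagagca
Nr4a1: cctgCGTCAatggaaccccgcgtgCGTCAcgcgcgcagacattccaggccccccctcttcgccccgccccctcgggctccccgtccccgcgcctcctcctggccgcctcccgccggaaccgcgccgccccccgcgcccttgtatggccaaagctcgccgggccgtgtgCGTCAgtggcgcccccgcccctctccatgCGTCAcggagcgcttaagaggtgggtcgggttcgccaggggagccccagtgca
Ier2: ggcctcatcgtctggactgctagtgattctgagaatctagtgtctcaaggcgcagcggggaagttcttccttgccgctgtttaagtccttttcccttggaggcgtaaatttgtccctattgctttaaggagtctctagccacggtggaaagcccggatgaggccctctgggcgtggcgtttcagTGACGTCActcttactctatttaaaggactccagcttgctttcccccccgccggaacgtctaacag

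Clock genes were called in both directions: of 19 measured, 5 were raised (20.3% of all genes) and 6 lowered (11.3%). Dbp, an output factor of the clock, was at 3.53, 3.75 and 3.84 in WKY and at 4.13, 4.14 and 4.33 in SHRSP (0.50 ± 0.10). The repressors Per2 and Cry1 rose by 0.65 ± 0.09 and 0.36 ± 0.06, Nr1d1 by 0.33 ± 0.07 and Hlf by 0.39 ± 0.09. The activators Bmal1 and Clock fell by 0.33 ± 0.04 and 0.27 ± 0.09, but their other probes gave 0.16 and -0.15 and were not called (adjusted p = 0.52 and 0.57). With the mean of all probes the list had 4 lowered. Nfil3, which opposes Dbp, fell by 0.66 ± 0.07. Cry2 fell by 0.30 ± 0.05, Ciart by 0.34 ± 0.09 and Rora by 0.22 ± 0.06. The random slide block kept the 5 raised and 3 of the lowered. The hour at which the brains were taken is not given in the sources used here, and its part in the clock and immediate early values was not tested.

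Enzymes of eicosanoid metabolism differed in both directions. Of 24 measured, 12 were raised (20.3% of all genes) and 5 lowered (11.3%), with a median of 0.162. Hpgd, which like Ptgr1 degrades prostaglandins, was at -2.83, -2.83 and -2.90 in WKY and at -3.75, -3.86 and -3.79 in SHRSP (-0.94 ± 0.06, adjusted p = 4.1e-08). Cyp2c11, an epoxygenase, was at -4.81, -4.82 and -4.73 against -6.20, -5.90 and -6.07 (-1.27 ± 0.13). Ptgs2, the inducible cyclooxygenase, fell by 0.68 ± 0.08. The 2 degrading enzymes and Cyp2c11 were thus lower on every SHRSP array than on any WKY array.

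The raised members included lipoxygenase and cyclooxygenase genes. The microglial markers, 12 of 14 of them raised, moved with them (summed level 25.6 to 30.8 in WKY, 37.1 to 38.1 in SHRSP), and their part in these values was not tested. Alox15, a lipoxygenase, was at -4.17, -4.67 and -4.58 in WKY and at -3.3, -3.23 and -3.60 in SHRSP (1.1 ± 0.17). Alox5ap, the activating protein of 5-lipoxygenase, rose by 0.88 ± 0.11 and Alox5 itself by 0.76 ± 0.12. Ltc4s, leukotriene C4 synthase, rose by 0.61 ± 0.09, and Ptgs1, the constitutive cyclooxygenase, by 0.79 ± 0.10. Ptges, a prostaglandin E synthase, rose by 0.81 ± 0.09, and Ptgds, the abundant prostaglandin D synthase of meninges and choroid plexus, by 0.43 ± 0.05. The hydroxylases Cyp4f5 and Cyp4f4 rose by 0.41 and 0.35, and Ephx1, a microsomal epoxide hydrolase, by 0.58. Ephx2, the soluble epoxide hydrolase, differed by -0.10 ± 0.19 (adjusted p = 0.725), while it was low, from -6.90 to -7.64, in SHR at 6 weeks and in the 3-week SHRSP arrays. Against SHR at 6 weeks, where 2 of the 3 arrays were well above background, it was higher in SHRSP by 3.65.

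In fatty acid oxidation, 10 of 24 measured genes were raised (20.3% of all genes) and 3 lowered (11.3%), with a median of 0.100. Besides Acsm5, Acox2, the peroxisomal oxidase of branched chains and bile acid intermediates, was at -7.34, -6.95 and -7.67 in WKY and at -4.93, -4.67 and -4.77 in SHRSP (2.53 ± 0.22), with 2 of the 3 WKY arrays well above background. Acot1, an acyl-CoA thioesterase, rose by 0.50 ± 0.04, and Acaa1a, the peroxisomal thiolase, fell by 0.54 ± 0.04. Hadha was at -0.17 by the probe used, and its other probe was called in the opposite direction (0.23, limma adjusted p = 0.014 among probes). The random slide block kept 9 raised and 1 lowered.

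Of 30 genes of glutathione and antioxidant defence, 13 were raised (20.3% of all genes) and 7 lowered (11.3%), with a median of 0.128. With the random slide block 9 were raised and 4 lowered. The glutathione transferases Gstt1 and Gstm2 rose by 0.58 ± 0.05 and 0.59 ± 0.08, and Hmox2, a heme oxygenase, by 0.30 ± 0.04. Cat, catalase, rose by 0.48 ± 0.10. Sod2, the mitochondrial superoxide dismutase, fell by 0.26 ± 0.04, Prdx6 by 0.30 ± 0.06 and Srxn1, which repairs peroxiredoxins, by 0.35 ± 0.07. Gstm1, a candidate gene of SHRSP hypertension, differed by 0.08 ± 0.04 and did not pass the test (adjusted p = 0.154).

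Within the renin-angiotensin system, 6 of 17 measured genes were raised (20.3% of all genes) and none was lowered by limma (11.3% of all genes; 3 members at an unadjusted p under 0.05), with a median of 0.107. With quantile normalization 5 were raised and 3 lowered, with a median of 0.039. Leaving out WKY replicate 3, or SHRSP replicate 1, gave 4 raised and 1 lowered. Among the raised, Mas1, the receptor of angiotensin 1-7, was at -1.83, -1.92 and -1.90 in WKY and at -1.5, -1.38 and -1.41 in SHRSP (0.46 ± 0.07, adjusted p = 0.00017). Ace, the converting enzyme, was at -1.22, -1.27 and -1.30 against -0.78, -0.94 and -1.04 (0.35 ± 0.08), and the random slide block ended its call (adjusted p = 0.071). Ctsd, cathepsin D, rose by 0.34 ± 0.06, and the aminopeptidases Anpep and Enpep rose by 0.61 ± 0.13 and 0.21 ± 0.07. Thop1, an oligopeptidase, rose by 0.11 ± 0.04, and the calls of Enpep and Thop1 were also lost with the slide block (adjusted p = 0.26 and 0.17).

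The substrate and the type 1 receptors did not pass the test. Agt, angiotensinogen, was at 4.41, 4.51 and 4.49 in WKY and at 4.49, 4.55 and 4.70 in SHRSP (0.11 ± 0.06, adjusted p = 0.166), with the groups overlapping. The receptors Agtr1a and Agtr1b differed by 0.06 ± 0.07 and 0.02 ± 0.43, Agtrap by 0.05 ± 0.05 and Atp6ap2, an accessory protein of the proton pump, by -0.13 ± 0.08. Cma1, chymase, was not well above background on any of the 6 arrays. The peptidases Prcp, Mme and Lnpep differed by -0.32, -0.21 and -0.11. At 3 weeks 2 of the 17 were raised (17.2% of all genes) and 5 lowered (23.3%), among them Agtrap at -3.90 on the arrays in which the label conflict shows.

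Of 27 measured genes proposed for hypertension or stroke in these strains, 7 were raised (20.3% of all genes) and 3 lowered (11.3%). Both counts are near these shares, and quantile normalization gave 4 and 4. Leaving out WKY replicate 3 gave 4 raised and 3 lowered, and leaving out SHRSP replicate 1 gave 4 and 2. Besides Vegfb, Endog, a mitochondrial nuclease linked to cardiac mass, was at 0.11, 0.16 and 0.19 in WKY and at -0.45, -0.43 and -0.48 in SHRSP (-0.61 ± 0.04, adjusted p = 1.28e-07). Cd36, the fatty acid transporter whose defect is known from SHR, was at -4.23, -4.52 and -4.19 against -3.54, -3.41 and -3.91 (0.69 ± 0.12). Spon1, an extracellular matrix protein, rose by 0.36 ± 0.06. Ndufc2, a complex I subunit proposed for stroke in SHRSP, was at 4.36, 4.36 and 4.44 against 4.63, 4.57 and 4.65 (0.23 ± 0.04), that is higher on every SHRSP array. At 3 weeks Ndufc2 differed by -0.16.

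Edn1, endothelin, rose by 0.41 ± 0.13, Cyp11b1, which makes corticosterone, by 0.21 ± 0.07 and Add1, alpha-adducin, by 0.13 ± 0.04, while Nr3c2, the mineralocorticoid receptor, fell by 0.15 ± 0.05. All 4 calls were lost with the random slide block (adjusted p from 0.13 to 0.17). The mean of all Add1 probes gave -0.05 (adjusted p = 0.465), so its direction depends on the probe. The natriuretic peptide Nppa differed by 0.19 ± 0.08 and its clearance receptor Npr3 by -0.32 ± 0.12 (adjusted p = 0.0526). The endothelin receptors Ednra and Ednrb differed by -0.01 and -0.07, Dbh by 0.29, Chga by 0.21, Stim1 by 0.08, Rgs2 by -0.03 and Cyp11b2 by 0.05, and none passed the test. Slc34a1, a renal phosphate transporter, was at -3.81 on WKY replicate 1 and from -6.94 to -6.20 on the other 5 arrays. Its difference of -0.55 ± 0.54 turned to 0.45 (adjusted p = 0.0322) without that replicate.

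Microglial genes were higher in SHRSP. Of 14 markers measured 12 were raised (20.3% of all genes), with a median of 0.494. None was lowered by limma (11.3% of all genes, 0 members at an unadjusted p under 0.05). C1qa, a subunit of the complement initiator C1q, was at 0.53, 0.46 and 1.01 in WKY and at 1.66, 1.64 and 1.47 in SHRSP (0.92 ± 0.12). C1qb rose by 0.75 ± 0.09 and C1qc by 0.87 ± 0.14. Trem2, a lipid-sensing receptor, was at -0.01, -0.07 and 0.32 against 0.70, 0.82 and 0.76 (0.68 ± 0.08). For each of these genes WKY replicate 3 was the highest WKY array and still lay below every SHRSP array. Tmem119, a membrane protein of microglia, rose by 0.81 ± 0.14 and Csf1r, the growth factor receptor that microglia need, by 0.65 ± 0.11. Cx3cr1 at -0.30 and P2ry12 at 0.00, both receptors of resting microglia, did not pass the test.

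The summed level of the 14 markers was 25.6 to 30.8 times the 75th percentile on the WKY arrays and 37.1 to 38.1 times on the SHRSP arrays. In whole-brain RNA, more cells of a type and more RNA per cell cannot be told apart. The arrays labelled SHR at 6 weeks lay at 35.1 to 38.8, and of the 14 genes 1 was higher (21.8% of all genes) and 2 were lower (21.1%) in SHRSP than in SHR. At 3 weeks 7 of 14 were raised in SHRSP (17.2% of all genes) and none was lowered by limma (1 at an unadjusted p under 0.05). The random slide block kept 10 raised (9.71% of all genes), and the fits with an array left out called 10 to 12 raised.

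Genes of antigen presentation were also higher. Of 17 measured 10 were raised (20.3% of all genes), with a median of 0.321. None was lowered by limma (11.3% of all genes, 0 members at an unadjusted p under 0.05). Cd74, the invariant chain of class II molecules, was at -3.12, -3.34 and -2.75 in WKY and at -1.83, -1.89 and -2.19 in SHRSP (1.1 ± 0.13, adjusted p = 2.84e-05). The class II chains RT1-Da, RT1-Bb and RT1-Db1 rose by 0.74 ± 0.10, 0.58 ± 0.09 and 0.43 ± 0.08. The class I genes RT1-A2 and RT1-CE5 rose by 0.41 and 0.33, and Psmb8, an immunoproteasome subunit, by 0.31. RT1-N2 depended on the probe. The probe used gave 0.09 and was not called, and its other probe was called at -0.90 (limma adjusted p = 0.023 among probes). Class I and class II genes lie in a variable family, and how well each probe matches each strain was not analysed here. Interferon response genes were mostly not called: of 22 measured 2 were raised (Ifih1 by 0.47 and Irf1 by 0.12) and 1 was lowered (Ifi44 by 0.41), and all 3 calls were lost with the random slide block.

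Genes of the meninges and fibroblasts gave the highest share of raised members. Of 17 measured 15 were raised (20.3% of all genes) and 1 lowered (11.3%), with a median of 0.400. Igf2, a growth factor made in meninges and choroid plexus, was at 3.26, 3.10 and 3.23 in WKY and at 3.77, 3.66 and 3.63 in SHRSP (0.49 ± 0.05). Islr rose by 0.34 ± 0.05, and Lum, a collagen-binding proteoglycan, by 0.98 ± 0.15. Dcn, decorin, rose by 0.40 ± 0.07 and the fibrillar collagens Col1a1, Col1a2 and Col3a1 by 0.41, 0.36 and 0.33. Slc47a1 was the lowered member (-0.36 ± 0.10). The summed level was 97.5 to 106 on the WKY arrays, 134 to 138 on the SHRSP arrays and 98.8 to 104 on the SHR arrays of that age. The SHRSP arrays thus stood above both other groups, and 10 of 17 were raised against SHR (21.8% of all genes). The random slide block kept 9 raised and none lowered by limma (1 at an unadjusted p under 0.05).

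**Figure D3:**
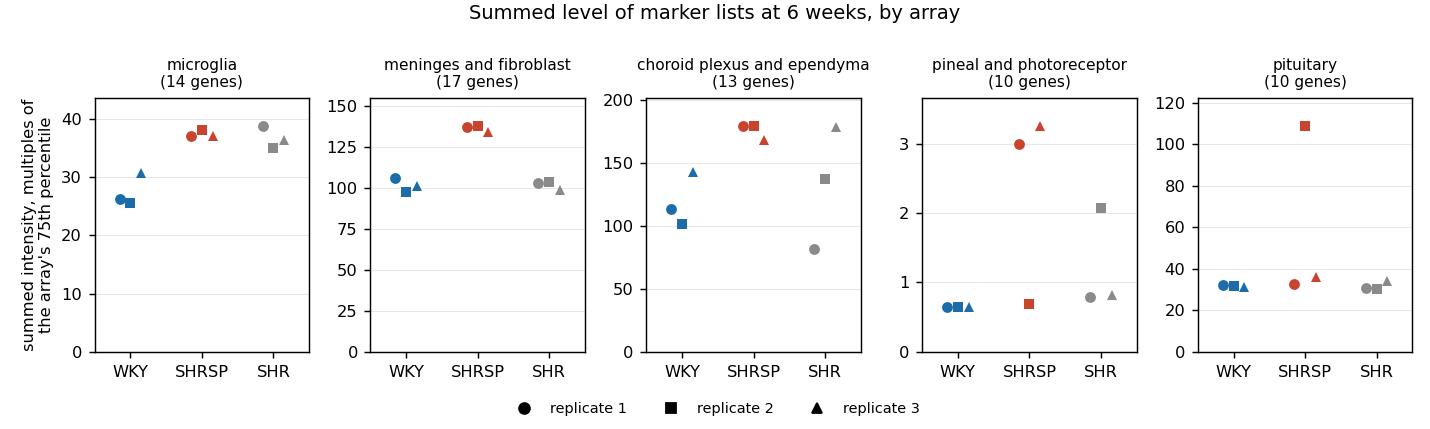
Summed intensity of 5 marker lists in multiples of the array's 75th percentile, 1 point per array of 6-week brain, by label and replicate. Microglial markers are high in SHRSP and SHR, meningeal markers in SHRSP, pineal markers on SHRSP replicates 1 and 3 and SHR replicate 2, and pituitary markers on SHRSP replicate 2.

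The plot of summed marker levels also shows choroid plexus, pineal and pituitary markers. Choroid plexus and ependyma markers had 8 of 13 raised (20.3% of all genes). None was lowered by limma (11.3% of all genes, 0 members at an unadjusted p under 0.05). The random slide block kept 3 raised, quantile normalization 5, and the fits with an array left out 4 (without WKY replicate 2) to 8, with 5 without WKY replicate 1, SHRSP replicate 1 or SHRSP replicate 2. Folr1, the folate receptor of choroid plexus, was at -1.58, -1.88 and -1.11 in WKY and at -0.21, -0.26 and -0.66 in SHRSP (1.15 ± 0.28, adjusted p = 0.074 with the slide block). Aqp1, a water channel, rose by 1.04 ± 0.20, Rarres2 by 0.60 ± 0.09, Foxj1, the factor of motile cilia, by 0.35 ± 0.06 and Ttr, transthyretin, by 0.57 ± 0.21. The summed level was 102 to 143 in WKY, 168 to 179 in SHRSP and 81.6 to 179 in SHR. The defining marker Ttr was between 6.57 and 7.40 on the 6 arrays, and its call was lost with the slide block (adjusted p = 0.23). How far choroid plexus or meninges carried with the brain bears on Igf2, Ptgds or the collagens was not tested.

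Pineal and photoreceptor markers separated the SHRSP replicates. Of 10 measured 4 were raised (20.3% of all genes), with a median of 1.465. None was lowered by limma (11.3% of all genes, 0 members at an unadjusted p under 0.05). Without SHRSP replicate 1 there were 2 raised, and without SHRSP replicate 2 there were 7. With the random slide block limma called none raised (9.71% of all genes were; 3 members at an unadjusted p under 0.05). Gngt2, a transducin subunit, was at -3.70, -3.98 and -3.46 in WKY and at -0.82, -2.77 and -0.72 in SHRSP (2.28 ± 0.52). Gnb3 rose by 2.33 ± 0.81 and Lhx4 by 1.36 ± 0.37, each less on replicate 2. Guca1a, which is not on the list, was at -2.50, -4.97 and -2.46 in SHRSP and rose by 2.31 ± 0.65. Aanat, the rhythmic enzyme of melatonin synthesis, differed less among replicates (-3.98, -4.25 and -4.16 against -5.28, -5.08 and -5.10, a rise of 1.02 ± 0.28). Tph1, the tryptophan hydroxylase of the pineal gland, was at 0.40, -5.33 and 0.51 in SHRSP and from -5.40 to -5.17 in WKY, and did not pass the test. The summed level was 0.64 to 0.65 in WKY, 3.00 and 3.25 on SHRSP replicates 1 and 3, and 0.69 on replicate 2. The part of pineal tissue in the Aipl1, Gnb3, Guca1a and Gngt2 values was not tested.

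Pituitary hormone genes were high on SHRSP replicate 2. Gh1, growth hormone, was at -6.45, 5.82 and -2.96 in SHRSP and from -8.79 to -7.10 in WKY, and Tshb, the thyrotropin beta chain, at -4.08, 1.99 and -6.41 against -7.04 to -6.14. Neither passed the test, and Gh1 was well above background on 1 of the 3 WKY arrays. Of 10 measured 2 were raised (20.3% of all genes). Fshb rose by 1.02 ± 0.33, lost with the slide block (adjusted p = 0.13), and Tbx19, a corticotroph factor, by 0.61 ± 0.07. Tbx19 was even over the SHRSP arrays (-3.12, -3.15 and -3.12). The summed level was 31.3 to 32.1 in WKY, and 32.7, 109 and 36.2 on SHRSP replicates 1, 2 and 3. Leaving out SHRSP replicate 1 or 3 raised the count on the list to 5 or 6, and leaving out any WKY array lowered it to 1. Leaving out SHRSP replicate 2 gave 5014 called genes in place of 6690. That is within the range of 4667 to 6385 from leaving out each of the 6 arrays in turn.

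The other cell and region markers are to be read against 20.3% raised and 11.3% lowered of all genes. Of 15 neuron markers 1 was raised and 3 lowered, of 13 astrocyte markers 3 and 3, and of 18 oligodendrocyte markers 4 and 4. The glial counts depend on the probe. Mobp, of myelin, was at 0.464 by the probe used, and its other probes were called at -1.944 and -1.346. The astrocyte genes Slc1a3 (0.191, other probe -0.236) and Slc4a4 (-0.375, other probe 0.221) were also called in opposite directions by their probes. Of 10 precursor markers limma called 2 lowered and none raised (0 at an unadjusted p under 0.05). Map2, a dendritic microtubule protein, rose by 0.78 ± 0.07. Slc1a2, the main glutamate transporter of astrocytes, fell by 0.44 ± 0.06, and Ugt8, a myelin lipid enzyme, by 0.77 ± 0.09. Cldn11, a tight junction protein of myelin, rose by 0.60 ± 0.06. Of 14 endothelial markers 4 were raised, with Pecam1 at 0.45 ± 0.07 and Tie1 at 0.59 ± 0.10, and of 12 mural cell markers 4 were raised and 1 lowered, with Vtn at 0.38 ± 0.07. With an array left out, 1 to 4 mural markers were raised (1 without WKY replicate 2, SHRSP replicate 1 or SHRSP replicate 2). Of 11 blood markers 1, Hbb, was raised (0.31 ± 0.11), and its call was lost with the slide block. Of 12 cerebellar markers 5 were raised, led by the Purkinje cell genes Car8 at 0.75 ± 0.07 and Pcp2 at 0.48 ± 0.06. With the random slide block 4 cerebellar markers were raised (9.71% of all genes). Striatal markers gave 2 raised and 1 lowered of 10, and hypothalamic markers 3 and 1 of 10. Hippocampal and cortical markers gave 2 raised of 11 and none lowered by limma (1 at an unadjusted p under 0.05).

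Avp, vasopressin, was at 0.75, 1.27 and 1.20 in WKY and at 1.83, 1.82 and 2.09 in SHRSP (0.84 ± 0.13, adjusted p = 0.000399). Its SHRSP arrays all lay above the WKY arrays. Oxt, oxytocin, rose by 0.46 ± 0.13, lost with the slide block (adjusted p = 0.14), and Ghrh by 0.48 ± 0.07. Crh, corticotropin-releasing hormone, fell by 0.41 ± 0.13, also lost (adjusted p = 0.11), and Crhbp, its binding protein, by 0.35 ± 0.09. In the list of vasopressin, oxytocin and natriuretic peptides 2 of 15 were raised and 4 lowered.

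Sst, somatostatin, was at 4.26, 4.30 and 4.24 in WKY and at 3.58, 3.57 and 3.60 in SHRSP (-0.69 ± 0.07, adjusted p = 5.61e-06), and Cort, cortistatin, fell by 0.26 ± 0.05. Grp, gastrin-releasing peptide, rose by 0.57 ± 0.04 and Gal, galanin, by 0.53 ± 0.06. Neuropeptides as a list had 3 of 21 raised and 3 lowered. Genes of GABA signalling had 1 of 21 raised (20.3% of all genes) and 8 lowered (11.3%), with a median of -0.111. Among the 8 were Gad2, an enzyme of GABA synthesis, at -0.45 ± 0.06 and the receptor subunit Gabrg1 at -0.34 ± 0.07. The slide block kept 4 of these 8, and 5 were lowered without SHRSP replicate 2. Of 20 glutamate receptor genes 3 were raised, among them Gria4 at 0.40 ± 0.05, whose other probe was called in the opposite direction (-0.26, adjusted p = 0.0189), and none was lowered by limma (2 at an unadjusted p under 0.05).

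Of 19 genes of catecholamine synthesis and signalling 3 were raised and 4 lowered. The receptor gene Adra1a fell by 0.38 ± 0.07 and Maoa, a monoamine oxidase, by 0.24 ± 0.06. Gch1, which makes the cofactor of tyrosine hydroxylase, rose by 1.0 ± 0.24, mainly on SHRSP replicates 1 and 3 (-3.02, -4.20 and -3.03), with its call lost to the slide block (adjusted p = 0.076). In nitric oxide and cyclic GMP signalling 2 of 16 were raised, Asl by 0.36 ± 0.04 and Ass1 by 0.44 ± 0.06, which together recycle citrulline to arginine, and 2 were lowered, with Prkg2, a cyclic GMP-dependent kinase, at -0.70 ± 0.06. Cholesterol synthesis had 3 of 24 raised and 5 lowered. The unfolded protein response had 5 of 19 raised and 1 lowered, with Pdia6 at 0.38 ± 0.05 and Xbp1 at 0.30 ± 0.04. Of 21 replication genes 4 were raised and 2 lowered, and apart from Mcm7 and Ncaph the called values lay between -0.28 and 0.29. Of 29 respiratory chain genes 12 were raised (20.3% of all genes), and 6 were with the random slide block (9.71%). None was lowered by limma (11.3% of all genes, 0 members at an unadjusted p under 0.05). Of 41 ribosomal protein genes 8 were raised and 1 lowered. With quantile normalization the respiratory chain had 4 raised and 1 lowered, ribosomal proteins 5 and 3, the unfolded protein response 4 and 5, and replication 3 and 4, so these counts depend on the scaling. Ribosomal proteins had 4 raised without WKY replicate 2 and 5 without SHRSP replicate 3.

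**Figure D4:**
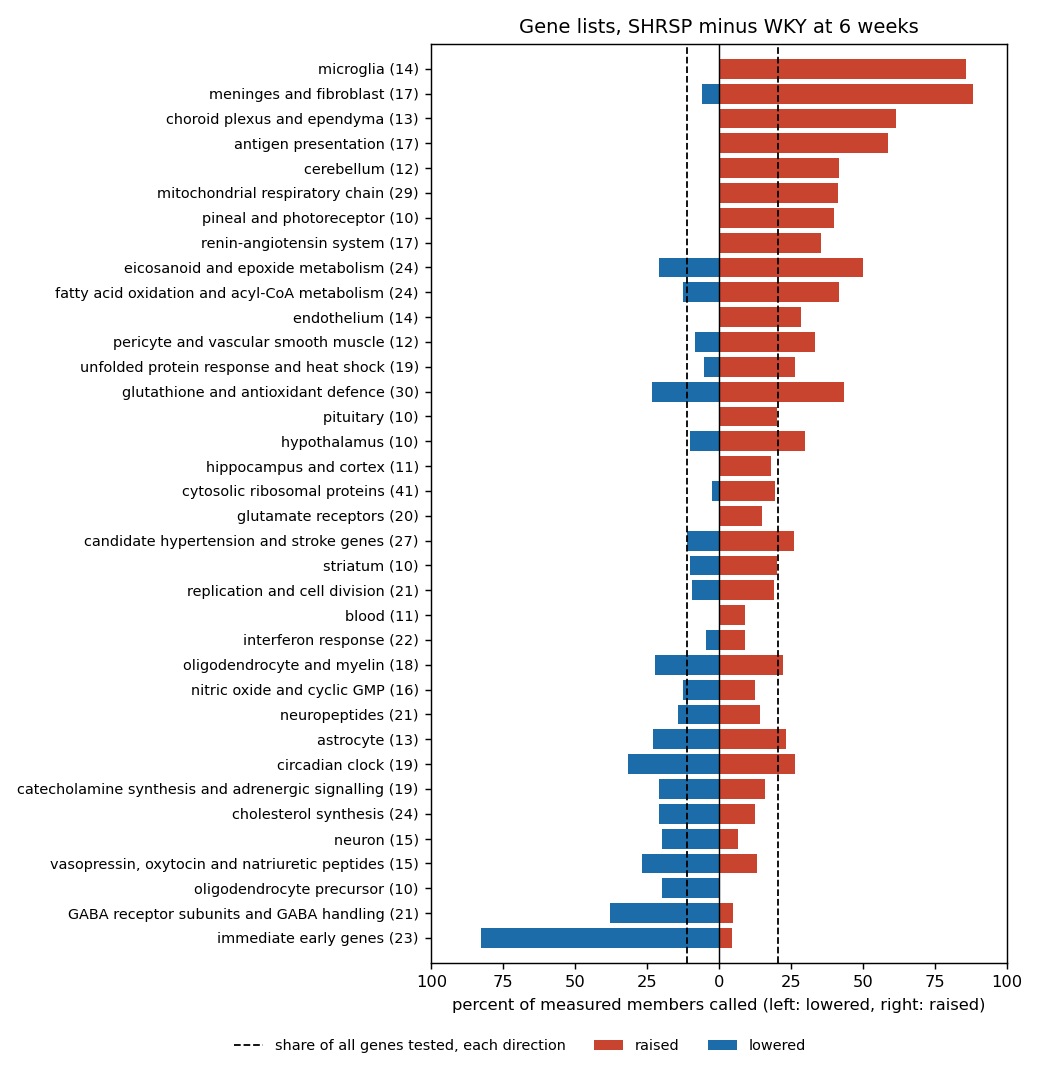
Percent of the measured members of each gene list that were raised (right) or lowered (left) in SHRSP against WKY at 6 weeks, with the number measured in brackets and dashed lines at the share of all genes tested (20.3% raised, 11.3% lowered). Among these lists, chosen with earlier results of these data known, immediate early genes stand out on the left. Microglial and meningeal markers do so on the right.

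The plot of the called share by list sets these counts against the share of all genes. Immediate early genes are the list farthest toward lowered, and lists with shares near the dashed lines, such as the striatal or candidate genes, are not results about their members. No list was tested as a set, and the lists were chosen with earlier results of these data known, so their order is no independent finding.

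The 6-week difference was then set against the same contrast at 3 weeks, which uses other arrays. Of the 261 genes called and at least 2-fold, 170 were called in the same direction at 3 weeks in the arrays labelled SHRSP, 10 in the opposite direction, and 81 were not called. Against the 3-week arrays labelled SHR, 181 were called in the same direction. The age difference itself was called for 6516 genes (30.8%), 96 of the 261 among them. With the 3-week arrays labelled SHR in place of SHRSP it was called for 4104 genes (19.4%), 63 of the 261 among them.

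The genes with the firmest age differences are those in which the label conflict shows. Tnfaip6, which binds hyaluronan, was at -4.86, -4.81 and -4.84 in WKY and at -3.01, -3.29 and -3.25 in SHRSP at 6 weeks (1.66 ± 0.07). At 3 weeks the arrays labelled SHRSP were at -4.42, -4.44 and -4.54 and those labelled SHR at -2.56, -2.72 and -2.71. The high group thus carried the SHRSP label at the later age and the SHR label at the earlier one. Haghl, a hydrolase-like gene, and Zfp597, a zinc finger gene, differed little at 6 weeks (0.21 ± 0.07 and -0.22 ± 0.07) and by -1.73 and 2.87 at 3 weeks. Against the 3-week arrays labelled SHR, the age difference was 0.10 for Haghl (adjusted p = 0.479), -0.31 for Zfp597 (adjusted p = 0.0462) and 0.22 for Tnfaip6 (adjusted p = 0.102). For Serhl2, Tceal7 and Vegfb it was 0.02, -0.03 and 0.17, and none of the 3 passed.

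**Figure D5:**
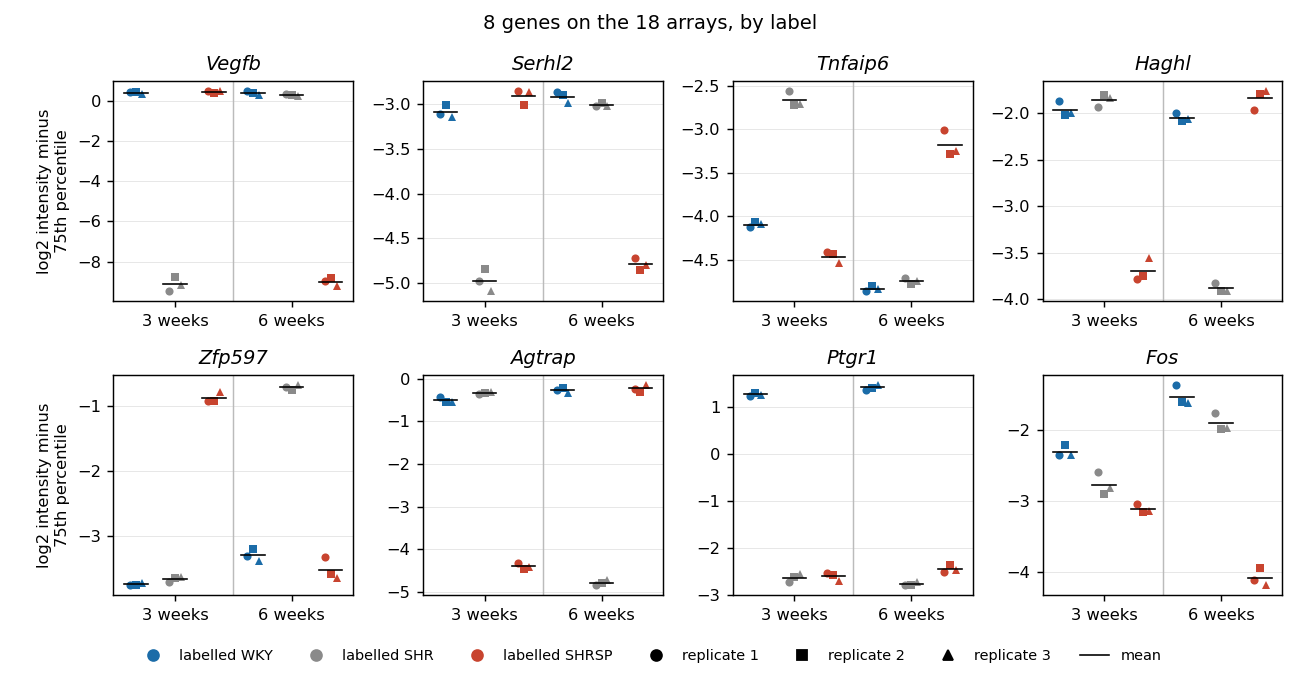
Levels (log2 intensity minus the array's 75th percentile) of 8 genes on all 18 arrays by label and age, 1 point per array with the group mean as a line. In Vegfb, Serhl2, Tnfaip6, Haghl, Zfp597 and Agtrap the labels SHR and SHRSP trade places between 3 and 6 weeks, in Ptgr1 both stay low, and Fos is lowest in SHRSP at 6 weeks.

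The plot of 8 genes by label and age puts the 18 arrays side by side. Ptgr1 was low in both hypertensive labels at both ages, so its value does not turn on the conflict. Against the arrays labelled SHR at 6 weeks, 9088 genes were called (42.9%), 116 of the 261 among them, while 190 of the 261 were called in the same direction in SHR against WKY, which shares the WKY arrays. Ptgr1 differed between SHRSP and SHR by 0.32 ± 0.06, Acsm5 by 0.06 ± 0.06 and Mcm7 by 0.17 ± 0.06. Car2, carbonic anhydrase 2, was at 1.96, 1.92 and 2.0 in WKY and at 0.76, 0.81 and 0.65 in SHRSP, lower than WKY by 1.22 and lower than SHR by 1.12. Tnnt1, slow skeletal troponin T, was at -0.80, -0.85 and -0.82 against 0.14, 0.15 and 0.19, higher than WKY by 0.98 and higher than SHR by 1.13. Both genes were chosen for a small adjusted p against SHR among genes called against WKY. Their 3 SHRSP arrays lay apart from all 6 other arrays of that age, which that choice favours. At 3 weeks, where the labels conflict, Car2 differed by -0.25 between the arrays labelled SHRSP and WKY.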

How the data were processed

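Per the labels' protocols, RNA from whole brain was labelled with Cy3 by oligo-dT priming. Per the file headers and the submitters' processing notes, Agilent Feature Extraction 10.5.1.1 gave the deposited intensity, which the authors' software had background-subtracted with a fitted spatial surface. From 42877 spots, outlier spots were left out, spots of a probe were averaged, and log2 intensity was scaled by each array's 75th percentile over 30367 probes. The intensity in the authors' series table equalled that of the scanner files. Probes (24287) well above background in a whole group were kept, the brightest per gene standing for it, which left 21183 genes. R 4.3.3 and limma 3.58.1 fitted 6 group means to 18 arrays (lmFit, eBayes, 12 residual degrees of freedom), with Benjamini-Hochberg adjustment over all genes, after a test on simulated data. Replicate numbers did not pair the arrays (correlations of same-numbered deviations 0.071, -0.068 and 0.018). Genes named were the 12 largest differences each way, among called genes above background on all 6 arrays whose groups did not overlap. Added were up to 4 each way under background, up to 4 per list, and candidate and renin-angiotensin genes. The age and SHR contrasts gave 5 each way, and other names were chosen after their values were seen. Members and lists were chosen with earlier results of these data known. Some genes the rule names are not reported here.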

Additional observations from a re-analysis of the deposited data

Results flagged for a closer look

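The SHRSP minus WKY difference was tested for a change between 3 and 6 weeks, and limma's age term was called for 6516 genes. The named genes with the smallest adjusted p had a larger value at 6 weeks in Tnfaip6 (2.02 on the log2 scale), Haghl (1.93), Serpina4 (1.77), Lpar6 (1.61) and Zfp14 (1.105), and a smaller one in Vegfb (-9.41), Zfp597 (-3.09), Serhl2 (-2.05), Tceal7 (-1.50) and Gpatch11 (-0.95). With the 3-week arrays labelled SHR in place of those labelled SHRSP the values were 0.22, 0.10, 0.54, 0.23 and 0.18 for the first 5 genes and 0.17, -0.31, 0.02, -0.03 and 0.24 for the other 5.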

How the results depend on the processing

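Of 21183 genes, 6690 were called between SHRSP and WKY at 6 weeks. With the slide as a random block 3211 were called (2056 raised, 1155 lowered), with 1425 for the age difference and 4754 against SHR, and with array weights 10826 (6667 raised, 4159 lowered) and 10101 for the age difference. The age difference with the 3-week arrays labelled SHR, chosen after seeing the data, gave 4104. The cause of these shifts was not tested. The other settings gave 5448 (only the 6 arrays) to 6745 (scan day as a random block), and leaving out each array 4667 (without WKY replicate 2) to 6385, with 3003 to 4086 raised and 1664 to 2299 lowered, 5351 to 6614 for the age difference and 7165 to 8490 against SHR. With the replicate number as a block 6286 were called (4042 raised, 2244 lowered), 6151 for the age difference and 8733 against SHR; the numbers do not pair the arrays. Add1 turned to -0.054 with the mean of all its probes, and Slc34a1 lay between -1.118 and 0.446 with an array left out. Of 192 named genes, 45 lost their call with the random slide block, 27 with only the 6 arrays, 20 with normexp background, 19 with quantile normalization and 15 to 25 with an array left out. A fixed slide or scan day block could not be fitted. Probes near background have only a bound.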
